A study of Mus musculus with 15 samples.

Results

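The genes whose products cut the microglial receptor TREM2, or equip the enzymes that cut it, were followed in mouse microglia after dosing with a TREM2 antibody. They are 6 of the 32372 genes in the deposited matrix and were chosen by name: the sheddases Adam10 and Adam17, the ADAM17 partners Rhbdf2 and Frmd8, and the gamma-secretase subunits Psen2 and Ncstn. Adam10 and Adam17 encode proteases, Psen2 encodes a catalytic subunit, and Rhbdf2, Frmd8 and Ncstn encode partners that do not cut TREM2 themselves. All 6 genes were detected in every mouse and all 6 passed the filter on low counts. The 15 mice were male hTfR KI animals of strain C57BL/6J aged 3.5 months, in which part of the human transferrin receptor replaces the mouse sequence, and all received 1 dose of 10 mg/kg of an antibody. The control group received the control antibody ATV:RSV and was taken at day 1, and the other groups received ATV:4D9 and were taken at day 1, 7, 14 or 28, with 3 mice in each of the 5 groups. ATV stands for an antibody whose Fc part binds the human transferrin receptor and so is carried into the brain, and 4D9 is an antibody against mouse TREM2. Microglia of the cortex and hippocampus were enriched with CD45 beads from dissociated hemibrains in 3 batches, each with 1 mouse of every group, and single-cell 3′ RNA libraries were made per mouse. Every comparison with ATV:RSV uses the same 3 control mice, no control was taken later than day 1, and the control animal that the labels add to the third batch was not analysed here.

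TREM2 sits in the plasma membrane of microglia and signals through the adaptor DAP12. ADAM10 and ADAM17 release its ectodomain as soluble TREM2, and the stub that stays in the membrane is then cut by gamma-secretase, which is built of a presenilin such as Psen2, nicastrin (Ncstn), an APH1 protein and PEN-2 (Psenen). ADAM17 needs an inactive rhomboid to leave the endoplasmic reticulum, in myeloid cells mainly iRhom2 (Rhbdf2), and FRMD8 binds the iRhoms and keeps the complex on the cell surface, whereas ADAM10 is escorted by tetraspanins of the TspanC8 group. The 4D9 antibody binds the TREM2 stalk, close to where the sheddases cut, so that the transcripts of the cutting machinery are of interest in these mice. A transcript level says nothing about the activity of the protease, which is largely set after translation.

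In mm10 with the GENCODE vM21 annotation, all 6 are protein-coding genes. Adam10 lies on the plus strand at chr9:70678997-70780229, and the others lie on the minus strand: Adam17 at chr12:21323509-21373632, Rhbdf2 at chr11:116598165-116627019, Frmd8 at chr19:5849702-5875274, Psen2 at chr1:180227004-180263438 and Ncstn at chr1:172066013-172082795. The whole spans of genes on the opposite strand, exons and introns together, overlap exons of 4 members. Iah1 shares 311 bases with Adam17, Frmd8os shares 1687 with Frmd8, Gm31728 shares 112 with Psen2 and Copa shares 195 with Ncstn. Whether the counting used strand is not given in the sources used here, so reads in those bases may belong to either gene. For Frmd8 and Psen2 the partner was scarcely counted, with 6 to 20 unique molecular identifiers (UMIs, the count of captured RNA molecules) of Frmd8os and 0 to 8 of Gm31728 per mouse. Iah1 was higher in treated mice at day 1 (log2 fold change 0.88, adjusted p = 9.96e-09, limma-voom), the same direction as Adam17.

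Promoter sequence from RefSeq (GRCm38.p6) is shown for Adam10, Adam17 and Frmd8, called at day 1, as 160 bases that end before the first base of any annotated transcript, 5′ to 3′ on the gene's own strand. Psen2, also called at day 1, is not shown, since both of its windows lie inside annotated transcripts, and Rhbdf2 has no entry. Capitals mark matches to a GC box, a CCAAT box, an E-box or an ETS core.
Adam10, chr9:70678822-70678981, plus strand: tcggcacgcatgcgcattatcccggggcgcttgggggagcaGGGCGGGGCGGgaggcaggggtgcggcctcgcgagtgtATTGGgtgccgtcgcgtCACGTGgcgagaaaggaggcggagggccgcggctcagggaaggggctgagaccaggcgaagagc
Adam17, chr12:21373633-21373792, minus strand: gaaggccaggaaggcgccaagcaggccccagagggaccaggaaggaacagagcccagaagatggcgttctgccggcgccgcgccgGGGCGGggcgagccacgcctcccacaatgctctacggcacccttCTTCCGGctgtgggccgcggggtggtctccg
Frmd8, chr19:5875275-5875434, minus strand: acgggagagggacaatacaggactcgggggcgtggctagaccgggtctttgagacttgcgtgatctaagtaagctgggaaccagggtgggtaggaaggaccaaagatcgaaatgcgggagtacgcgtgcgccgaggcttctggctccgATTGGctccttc
Short motifs of 12 kinds were looked for on both strands in the 250 bases before each RefSeq start of Adam10, Adam17, Frmd8, Psen2 and Ncstn, and the same search over 32851 windows gave the share of all windows with a match. The GC box GGGCGG was found for Adam10, where 2 copies overlap in the stretch above, for Adam17 and for Psen2, and in 32.7% of all windows. CCAAT, which reads ATTGG on the other strand, was found for Adam10 and Frmd8 and in 33.8% of windows. The ETS core CCGGAAG, read as CTTCCGG in Adam17, was found for Adam17 and Ncstn and in 6.91% of windows, and the E-box CACGTG was found for Adam10 and for 1 of the 2 Psen2 entries and in 6.02%. The PU.1 core GAGGAAG was found for Frmd8, inside the annotated transcript, and in 10.6% of windows. None of the windows of these 5 members held the TATA box TATAAA, the AP-1 site written TGANTCA, the E2F site written TTCCCGC, a cyclic AMP response element, a GAS element, the core of the interferon-stimulated response element or the NRF1 site, which are found in between 0.782% and 12.4% of windows. Adam10, higher at day 1, and Frmd8, lower, thus both held a CCAAT box, and a match describes letters and not a site in use.

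The matrix held 102043 cells, 5667 to 7596 per mouse, with 32341960 to 70307384 UMIs per mouse. Treated cells at day 1 were deeper, at a mean of 9329 ± 507 UMIs per cell (SD, n = 3) against 6154 ± 439 in ATV:RSV (ratio 1.52), while the ratio at later days was between 0.994 and 1.06. All 10 microglia markers were detected in every mouse, and their summed level was 15308 to 17033 CPM (counts scaled to the size of the library) at treated day 1 against 20600 to 24153 in the other mice. Cells with a UMI of the proliferation genes Mki67 or Top2a made up 19.6% to 27.4% of treated day 1 cells and 0.169% to 0.684% elsewhere. The 4 monocyte markers summed to 13.8 to 17.9 CPM at treated day 1 and 3.59 to 11.3 CPM in the other mice, the 4 astrocyte markers to 113 to 117 CPM against 186 to 266 CPM, and 15 genes that tissue dissociation induces to 15269 to 17348 CPM against 24656 to 29015 CPM. The median share of mitochondrial UMIs was 3.96% to 4.50% at treated day 1, 3.11% to 3.38% in ATV:RSV and 3.13% to 4.04% at later days, and 1283 cell barcodes occurred in more than 1 library. Cells with at least 3 markers of another cell type made up 0.899% to 1.15% of cells at treated day 1 and 0.270% to 0.517% elsewhere. Without these 513 cells, the same number of members was called at day 1, and the part of the remaining values was not tested except where a result without such cells is given.

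UMIs were summed over all cells of each mouse and are given as CPM after TMM scaling, which sets the libraries to 1 scale on the assumption that most genes do not change. In such sums, fewer cells of a type and less RNA per cell cannot be told apart. Groups were compared with limma-voom, and a gene was called where its p, adjusted by the Benjamini-Hochberg method over all 14260 genes tested, was under 0.05. At day 1, 5 of the 6 members were called, Adam10, Adam17, Rhbdf2 and Psen2 higher and Frmd8 lower in ATV:4D9 than in ATV:RSV mice. The background was high, since limma-voom called 69.2% of all genes in this comparison, 34.7% as higher and 34.6% as lower. A call by itself thus does not set these genes apart. The share of all genes whose treated and control mice do not overlap was not computed for any day. A lack of overlap thus does not set them apart either.

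**Figure D1:**
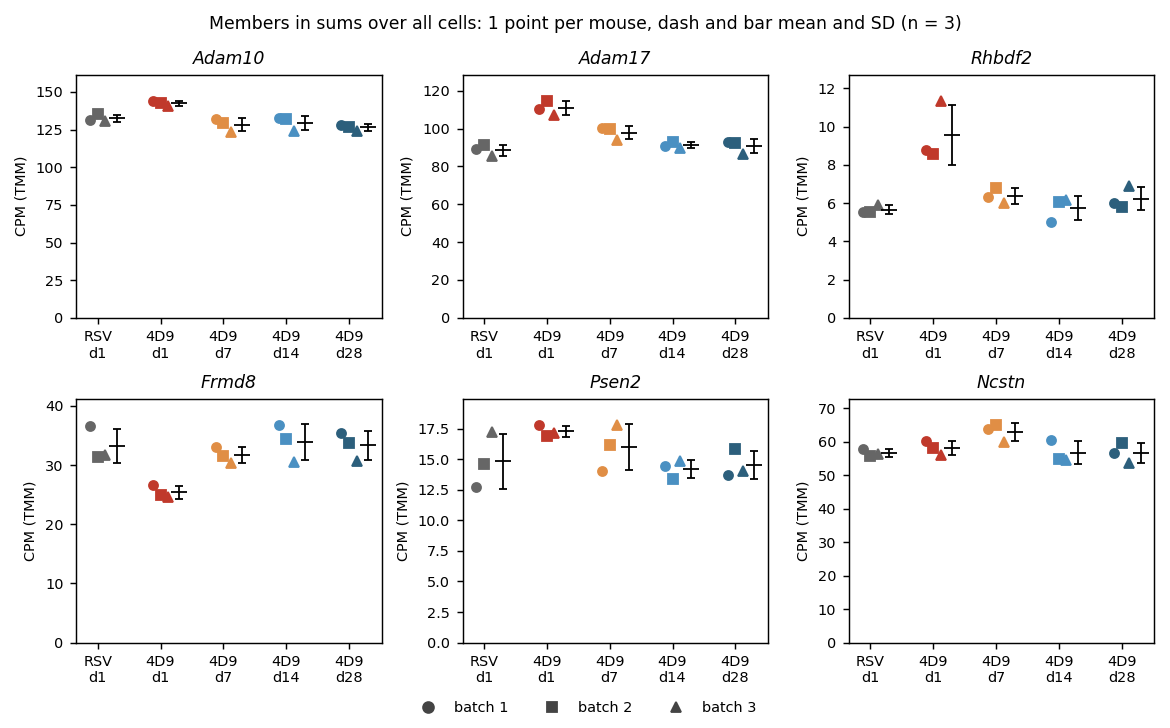
Level of each member in sums over all cells (y axis, CPM with TMM scaling, from 0) in the 15 mice, by group (x axis), 1 point per mouse with the shape giving the batch, and the mean and SD of 3 mice beside the points. The 3 treated day 1 mice lie above all ATV:RSV mice for Adam10, Adam17 and Rhbdf2 and below them for Frmd8. At day 7 the points of Adam17, Rhbdf2 and Ncstn lie above all ATV:RSV mice, and at day 28 those of Adam10 lie below them. In all other cases the later groups overlap the ATV:RSV mice. The share of all genes that separate from the ATV:RSV mice was not computed.

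The ADAM17 arm showed the largest differences, and they did not all point the same way. Rhbdf2, which encodes iRhom2, was 5.52, 5.55 and 5.92 CPM in the ATV:RSV mice of batches 1, 2 and 3 and 8.78, 8.54 and 11.4 CPM in the treated day 1 mice. The groups did not overlap, and the treated mouse of batch 3 was the highest of all 15. The log2 fold change was 0.73 (SE 0.117, 95% interval 0.48 to 0.98, adjusted p = 4.35e-05), or 1.66-fold, and within the batches it was 0.67, 0.62 and 0.94. Rhbdf2 is a low-count gene, with 219 to 559 UMIs per mouse.

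Adam17, the sheddase that iRhom2 serves, was 89.2, 91.1 and 85.4 CPM in ATV:RSV and 110, 115 and 107 CPM in treated day 1 mice. Again no treated mouse lay within the control range. The log2 fold change was 0.32 (SE 0.0460, 95% interval 0.23 to 0.42, adjusted p = 1.21e-05), or 1.25-fold, with 0.31, 0.33 and 0.33 within the batches.

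Frmd8, the FERM-domain partner of the iRhoms, went the other way. It was 36.6, 31.4 and 31.7 CPM in ATV:RSV and 26.7, 25.0 and 24.5 CPM in treated day 1 mice, with no overlap. It fell by 0.39 on the log2 scale (SE 0.0781, 95% interval -0.55 to -0.22, adjusted p = 0.000387), to 0.766 of the control level, and the within-batch values were -0.46, -0.33 and -0.37. On this scale the 2 partners of ADAM17 among the members thus moved in opposite directions in the same mice. In UMIs per cell without scaling, Frmd8 was 0.980 times the control and Rhbdf2 2.16 times.

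Adam10, the other TREM2 sheddase, differed far less. It was 132, 135 and 131 CPM in ATV:RSV and 144, 142 and 141 CPM in treated day 1 mice, which did not overlap. The log2 fold change was 0.11 (SE 0.0406, 95% interval 0.02 to 0.19, adjusted p = 0.0300), with 0.13, 0.08 and 0.11 within the batches. The Adam10 call did not survive leaving out the Mki67 or Top2a cells (0.07, adjusted p = 0.147), and it was also lost in 3 of the fits that leave out 1 mouse, without ATV:4D9 day 1 replicate 1 and without ATV:RSV replicate 1 or 3 (adjusted p up to 0.0815).

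The gamma-secretase members changed little. Psen2 was 12.7, 14.6 and 17.2 CPM in ATV:RSV and 17.8, 16.9 and 17.2 CPM in treated day 1 mice, and the groups overlapped because the control mouse of batch 3 reached the treated level. The log2 fold change of Psen2 was 0.24 (SE 0.0982, 95% interval 0.03 to 0.45, adjusted p = 0.0422), but it was 0.48 in batch 1, 0.21 in batch 2 and -0.00 in batch 3. The Psen2 call was lost in 8 of the 15 alternative fits and the sign turned in 1 more. Over the fits that leave out 1 mouse, the value ran from 0.12 (adjusted p = 0.275, without ATV:RSV replicate 1) to 0.35 (adjusted p = 0.00544, without ATV:RSV replicate 3), and without the Mki67 or Top2a cells it was 0.39 (adjusted p = 0.00257). Ncstn, the subunit that receives the substrate, was 57.9, 55.6 and 56.4 CPM in ATV:RSV and 60.2, 58.0 and 55.9 CPM in treated day 1 mice. The Ncstn groups overlapped and the test did not call it (0.04, 95% interval -0.08 to 0.15, adjusted p = 0.579).

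The small differences depended on the scaling. Scaling by library size alone, without TMM, shifted the median over all genes at day 1 from -0.05 to -0.29 on the log2 scale. On that scale the Rhbdf2 difference at day 1 was 0.49 and the Frmd8 difference -0.63, both still called, while the Adam17 difference was 0.08 (adjusted p = 0.139). Adam10 turned to -0.13 (adjusted p = 0.00671) and Ncstn to -0.20 (adjusted p = 0.00391), both lower than in ATV:RSV, and Psen2 was at -0.00. Rhbdf2, Adam17 and Frmd8 thus kept their day 1 direction under both scalings, and Rhbdf2 and Frmd8 were called in each of the 15 alternative fits, with Rhbdf2 between 0.49 and 0.90 and Frmd8 between -0.63 and -0.31.

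With TMM scaling, Trem2 itself, the substrate, was 2623 ± 155 CPM (SD, n = 3) in ATV:RSV and 2383 ± 115 CPM in treated day 1 mice. The log2 fold change of Trem2 was -0.14 (adjusted p = 0.0176), on the same small scale as the Adam10 and Psen2 differences, which depended on the scaling. The Trem2 value by library size alone is not given here. Whether Trem2 was also lower in UMIs per cell, where treated day 1 cells were deeper, was not tested.

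By day 7 the estimated differences of 5 members from control were nearer to 0 than at day 1, while that of Ncstn was 0.15 against 0.04 at day 1. Against ATV:RSV, 0 of 6 members were called with limma-voom at day 7, against 3.98% of the genes tested. 2 members had an unadjusted p under 0.05, Adam17 and Ncstn, edgeR called 0 and DESeq2 called 1. Adam17 was 100, 99.8 and 93.8 CPM at day 7, each above every control mouse and below every treated day 1 mouse. Its day 7 log2 fold change was 0.14 (95% interval 0.04 to 0.24, adjusted p = 0.108), and with the batch as a block Adam17 was called (0.15, adjusted p = 0.0185). Ncstn reached its highest level at day 7, at 63.8, 64.9 and 60.0 CPM, above all 3 control mice, with a log2 fold change of 0.15 (95% interval 0.03 to 0.27, adjusted p = 0.178). Rhbdf2 was 6.34, 6.81 and 5.99 CPM, also above each control mouse, but its difference of 0.16 was not called (adjusted p = 0.600).

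The step from day 1 to day 7 was tested directly, and 4 of the 6 members were called, against 66.9% of all genes (33.0% higher and 33.9% lower at day 7). Rhbdf2 fell by 0.57 on the log2 scale (adjusted p = 0.000485), Adam17 fell by 0.18 (adjusted p = 0.00277) and Adam10 fell by 0.15 (adjusted p = 0.00332). Frmd8 rose by 0.31 (adjusted p = 0.00257). The day 7 mice did not overlap the treated day 1 mice for any of these 4 genes, and the share of all genes without overlap was not computed. Psen2 (-0.10, adjusted p = 0.367) and Ncstn (0.11, adjusted p = 0.0828) were not called. By library size alone, which moved the median over all genes in this step from 0.02 to 0.17, Adam17 was at -0.035 (adjusted p = 0.552) and Adam10 at -0.0097 (adjusted p = 0.843), so both calls were lost, while Rhbdf2 (-0.42, adjusted p = 0.00371) and Frmd8 (0.46, adjusted p = 7.93e-05) were still called. Ncstn was called by library size alone (0.26, adjusted p = 0.000765), with a filter of at least 1 CPM (0.13, adjusted p = 0.0469) and with the batch as a block (adjusted p = 0.0310), and Psen2 without the Mki67 or Top2a cells (-0.27, adjusted p = 0.0300).

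**Figure D2:**
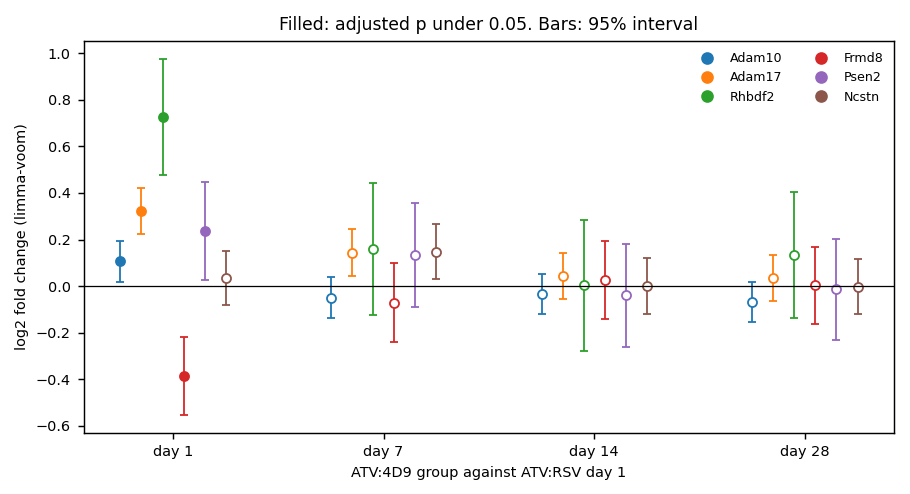
Log2 fold change of each member in the 4 ATV:4D9 groups against ATV:RSV day 1 (y axis; points with 95% intervals, filled where the adjusted p is under 0.05), from limma-voom on sums per mouse. At day 1 Rhbdf2 stands at 0.73 and Frmd8 at -0.39, and from day 7 on no member is called.

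At day 14 and day 28 no member was called against ATV:RSV. limma-voom called 0 of 6 at either day (0.400% of all genes at day 14 and 0% at day 28), 0 members had an unadjusted p under 0.05, and edgeR and DESeq2 called 0 as well. Over all genes at day 28, 571 had an unadjusted p under 0.05 in limma-voom, edgeR called 0 and DESeq2 called 14. The members' log2 fold changes lay between -0.04 and 0.04 at day 14 and between -0.07 and 0.13 at day 28. At day 28 Adam10 was 128, 127 and 124 CPM, below all 3 control mice, with a log2 fold change of -0.07 (95% interval -0.15 to 0.02, adjusted p = 1.00). The widest interval was that of Rhbdf2, -0.28 to 0.29 at day 14 and -0.14 to 0.41 at day 28, so that a Rhbdf2 difference of the size seen at day 1 lies outside it. From day 7 to day 14, 0 members were called (0.912% of all genes), with 2 at an unadjusted p under 0.05, and from day 14 to day 28 it was 0 members (0% of all genes), with none at an unadjusted p under 0.05. edgeR and DESeq2 called 0 members in both steps, and of all genes in the last step 338 had an unadjusted p under 0.05, edgeR called 0 and DESeq2 called 70.

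Over the 5 groups together, 4 members were called by the F test of the same fit, against 66.5% of all genes: Adam17 (adjusted p = 6.50e-05), Rhbdf2 (0.000184), Frmd8 (0.000928) and Adam10 (0.00912). Psen2 (0.0890) and Ncstn (0.101) were not, while edgeR called 4 members over the 5 groups and DESeq2 called 5. By library size alone Adam17 was not called (0.404) and Ncstn was (0.00732). Ncstn was also called with the batch as a block (0.0273) and without ATV:4D9 day 14 replicate 1 (0.0422), and Psen2 without ATV:RSV replicate 3 (0.0206) or ATV:4D9 day 7 replicate 1 (0.0356). Without the Mki67 or Top2a cells Psen2 was called (0.00547) and Adam10 was not (0.0509). In the order of group means, the treated day 1 group stood apart from its nearest neighbor for Adam10, Adam17 and Rhbdf2 at the top and for Frmd8 at the bottom. Adam17 was the member whose day 7 group (97.9 ± 3.6 CPM) also stood clear of the next group, day 14 (91.3 ± 1.6 CPM). All other neighbors in the order overlapped, for Psen2 and Ncstn at every step. The share of all genes with a group that stands apart in this way was not computed.

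Since treated day 1 cells held more RNA molecules, the members were also counted per cell without any scaling. Rhbdf2 was 0.0385, 0.0339 and 0.0382 UMIs per cell in ATV:RSV and 0.0785, 0.0712 and 0.0885 in treated day 1 mice, a ratio of means of 2.16. Adam17 went from 0.576 to 0.927 UMIs per cell (1.61), Psen2 from 0.0963 to 0.145 (1.50), Adam10 from 0.862 to 1.19 (1.38) and Ncstn from 0.369 to 0.486 (1.32). For each of these 5 genes, the 3 treated mice lay above the 3 controls. The total per cell was itself 1.52 times that of the controls, and the ratios of Psen2, Adam10 and Ncstn were below it. The share of all genes that separate in this way was not computed, so the separation does not set these genes apart. Frmd8 was the exception. It was 0.255, 0.192 and 0.205 UMIs per cell in ATV:RSV and 0.238, 0.208 and 0.191 at treated day 1 (ratio 0.980), so that Frmd8 per cell was near the control level while the total per cell was 1.52 times that of the controls.

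The 5 groups were compared per cell with an exact permutation test of the groups within the batches (14400 arrangements, two-sided, 6 tests per measure, p not adjusted). The exact permutation p was 0.00222 for Rhbdf2, 0.00674 for Adam10, 0.0187 for Adam17, 0.0360 for Ncstn, 0.0370 for Psen2 and 0.204 for Frmd8. UMIs per cell were not scaled for depth, and the share of all genes with a p under 0.05 in this test was not computed. Leaving out any of the 3 treated day 1 mice reduced the members with p under 0.05 from 5 to 2. For day 1 against ATV:RSV alone, 3 mice against 3 cannot give an exact p below 0.1, which is what all members but Frmd8 gave (Frmd8 0.9). At later days UMIs per cell were close to control, with 2 groups that did not overlap it: Rhbdf2 at day 28 (0.0424, all 3 mice higher) and Adam10 at day 7 (0.776, all 3 mice lower).

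To compare cells at equal depth, the share with a UMI was computed on cells thinned at random to 3385 UMIs, with the 10204 shallower cells left out, between 3.93% and 5.79% of a mouse's cells at treated day 1 and between 6.75% and 17.8% in the others. Rhbdf2 was found in 1.89%, 1.88% and 2.06% of thinned ATV:RSV cells and in 2.53%, 2.63% and 3.10% of thinned treated day 1 cells (exact permutation p over the 5 groups 0.00979, and 0.0531 without ATV:4D9 day 1 replicate 3). Frmd8 was found in 12.3%, 10.7% and 10.6% of ATV:RSV cells and in 8.54%, 7.32% and 7.72% of treated day 1 cells (exact permutation p = 0.00229), and at day 7 its share was still below every control, at a mean of 9.72%. Both genes thus kept at equal depth the direction that they had in the sums.

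Adam17 was found in 27.2% of thinned ATV:RSV cells and 28.3% of thinned treated day 1 cells (exact permutation p = 0.217, and 0.00243 when thinned to the 5th percentile of depth), Ncstn in 17.9% and 16.4% (0.0647, with all 3 treated mice below the controls, and between 0.00417 and 0.0451 without ATV:RSV replicate 2 or 3 or any 1 of the day 28 mice) and Psen2 in 5.07% and 5.02% (0.501). For Adam10 the share was 36.8% in ATV:RSV and lower in every mouse of every treated group, at means of 34.9%, 33.8%, 35.7% and 35.3% from day 1 to day 28 (exact permutation p = 0.000417). At day 1 this goes against the TMM-scaled Adam10 CPM and has the direction of the CPM by library size (ratio of means 0.911). No order is read from it, and the share of all genes that separate in this way was not computed. Without thinning the shares at day 1 were 63.7% against 52.6% for Adam10, 56.0% against 40.9% for Adam17, 7.03% against 3.58% for Rhbdf2, 18.5% against 18.9% for Frmd8, 12.6% against 8.89% for Psen2 and 36.4% against 29.2% for Ncstn. No cell type that lacks these genes was at hand to measure free RNA, so its part in the shares was not tested.

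Most cells carried 0 or 1 UMI of a member. Cells with 3 or more UMIs of Adam10 made up 7.80% of ATV:RSV cells and 14.2% of treated day 1 cells, and for Adam17 it was 3.28% and 8.84%. For Rhbdf2, no ATV:RSV cell held more than 2 UMIs, while 0.132% of treated day 1 cells held 3 or more, up to 5. These counts are not thinned and move with the depth of the cells.

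**Figure D3:**
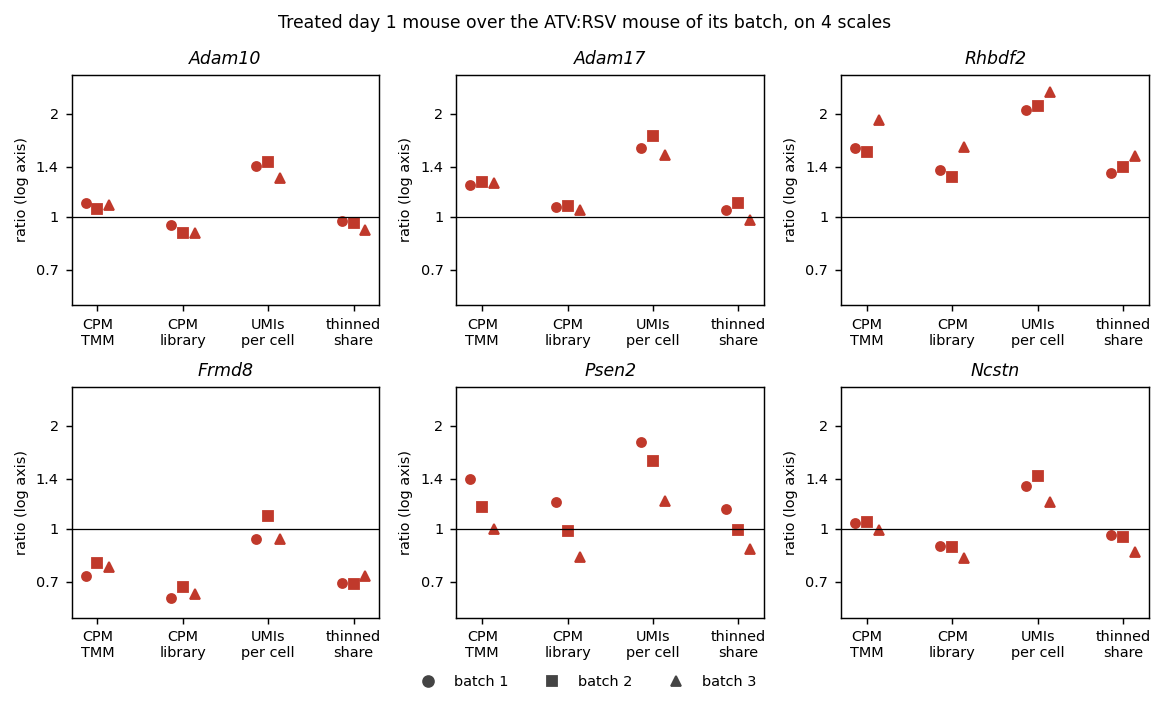
Ratio of the treated day 1 mouse to the ATV:RSV mouse of its batch (y axis, log scale) on 4 scales (x axis: CPM with TMM, CPM by library size, UMIs per cell without scaling, and share of thinned cells with a UMI), 1 point per batch. Rhbdf2 lies above 1 on every scale and in every batch, Frmd8 lies below 1 on all but UMIs per cell, and the other members cross 1 with the scale.

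On all 4 scales together, Rhbdf2 at treated day 1 was 1.31 to 2.32 times the control mouse of its batch. Frmd8 was 0.627 to 0.795 times the control on the 3 relative scales and 0.936, 1.09 and 0.935 times in UMIs per cell. Adam17 was 1.04 to 1.72 times the control in every case but the thinned share of batch 3, which was 0.978. Adam10 was above the control on TMM-scaled CPM and per cell and below it by library size and by thinned share, in all 3 batches.

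The study deposited 3 clusters of cells, named 0, 1 and 2, and the groups rest on very unequal numbers of cells in them. In cluster 2 there were 18416 treated day 1 cells and 339 ATV:RSV cells, with 76 to 165 per control mouse, and 247 to 512 cells in each later group. In clusters 0 and 1 the treated day 1 group had 945 and 1098 cells, against 11364 and 8598 in ATV:RSV. The clusters were made from the genes of these cells, so levels between clusters are descriptions. The share of all genes whose mice do not overlap within a cluster was not computed.

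By group mean, Rhbdf2 was higher in cluster 2 than in clusters 0 and 1 in all 5 groups. Its level in ATV:RSV was 5.58 ± 0.10 CPM (SD, n = 3) in cluster 0, 5.95 ± 0.75 CPM in cluster 1 and 9.46 ± 0.63 CPM in cluster 2, and at treated day 1 it was 8.09 ± 2.68, 7.00 ± 2.71 and 9.81 ± 1.54 CPM. In cluster 2 of the later days it was 14.4 CPM at day 7, 13.9 CPM at day 14 and 19.7 CPM at day 28, but from 7 to 23 UMIs per mouse. The few cluster 2 cells of control mice had a mean Rhbdf2 level near that of the many in treated mice, but on 7 to 14 UMIs per mouse. Their border-associated macrophage markers summed to 45.3 to 75.4 CPM, against 17.2 to 24.7 CPM in cluster 2 at treated day 1, and the part of this was not tested. In cluster 0 the treated day 1 mice (6.10 to 11.1 CPM, 11 to 14 UMIs) lay above the controls (5.50 to 5.69 CPM), while in clusters 1 and 2 the mice overlapped. None of the 3 within-cluster differences at day 1 was called (0.44, 95% interval -0.10 to 0.99, in cluster 0, 0.30, -0.31 to 0.91, in cluster 1 and -0.13, -0.88 to 0.62, in cluster 2). These intervals are wide enough to hold the difference of 0.73 in clusters 0 and 1.

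Frmd8 was lower within cluster 2 as well. It was 33.3 ± 1.4 CPM in the cluster 2 cells of ATV:RSV mice and 25.5 ± 1.3 CPM in those of treated day 1 mice, without overlap, and fell by 0.50 on the log2 scale (SE 0.143, adjusted p = 0.0106, limma-voom within the cluster). The control value rests on 23 to 48 Frmd8 UMIs per mouse, and the call is lost without ATV:RSV replicate 1 (adjusted p = 0.0521) or replicate 3 (0.0697). In cluster 0 Frmd8 was 36.0 and 34.1 CPM and in cluster 1 it was 30.4 and 26.4 CPM, in ATV:RSV and treated day 1 mice, and neither difference was called.

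Adam17 was higher within cluster 1, at 101 ± 3.9 CPM in ATV:RSV and 118 ± 14.0 CPM at treated day 1, a log2 fold change of 0.29 (SE 0.0746, adjusted p = 0.0179). The call is lost without ATV:4D9 day 1 replicate 1 (adjusted p = 0.216) or replicate 2 (0.128) or ATV:RSV replicate 3 (0.0528). In cluster 2 Adam17 was 98.2 ± 11.7 and 113 ± 3.7 CPM (0.11, 95% interval -0.08 to 0.31) and in cluster 0 it was 85.8 ± 3.2 and 90.7 ± 7.1 CPM (0.07, -0.14 to 0.27).

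Psen2 in cluster 2 was not called at day 1 (-0.21, adjusted p = 0.536), but without ATV:RSV replicate 1 it was called lower (-0.98, adjusted p = 0.00265), and without ATV:RSV replicate 3 it was at 0.15 (adjusted p = 0.739).

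In counts, 0 members were called at day 1 within cluster 0, where 0 had an unadjusted p under 0.05 and 5.09% of 13329 genes were called, 1 within cluster 1 (9.18% of 11989 genes) and 1 within cluster 2 (36.8% of 8511 genes). Against ATV:RSV at later days 0 members were called in any cluster with limma-voom, and no other tool was run there. The share of all genes called at days 7, 14 and 28 was 4.28%, 0.113% and 0% in cluster 0, 5.76%, 1.18% and 0% in cluster 1, and 0.693%, 0% and 0% in cluster 2. Members with an unadjusted p under 0.05 at those days were Adam17 and Ncstn in cluster 0 and Adam17 in cluster 1 at day 7, all higher, Adam10 in cluster 2 at day 7, lower, and Rhbdf2 in cluster 2 at day 28, higher.

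**Figure D4:**
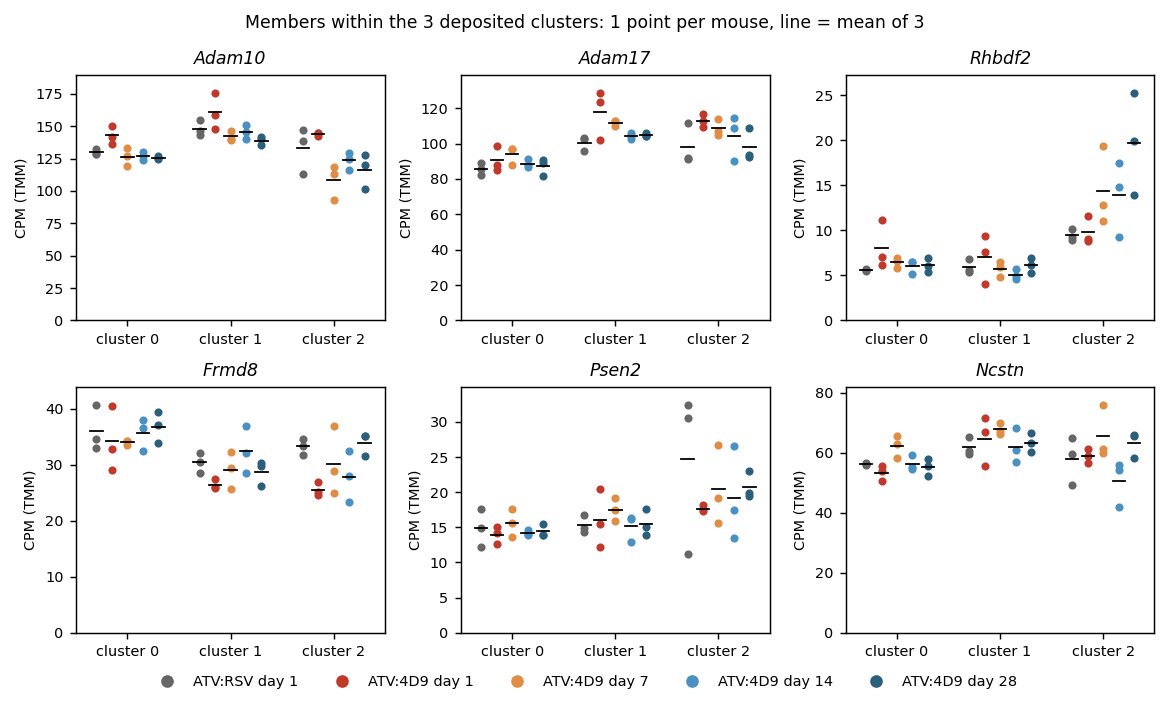
Level of each member within the 3 deposited clusters (y axis, CPM from 0, with TMM scaling over the sums of all 3 clusters together, and x axis, cluster, with the 5 groups side by side), 1 point per mouse and a line at the mean of 3. Rhbdf2 is at 9.46 CPM in cluster 2 of ATV:RSV and 9.81 CPM in that of treated day 1, and Frmd8 is at 33.3 and 25.5 CPM there.

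The rest of the cutting machinery was described from 59 listed genes in 7 lists, of which 46 passed the filter on low counts, 40 of them not members. At day 1, 16 of the 46 were higher and 17 lower, beside 34.7% and 34.6% of all genes. Of the 40 others 12 were higher and 16 lower, with a median log2 fold change of -0.10 against -0.05 over all genes. By library size alone the split of the 46 was 10 higher and 26 lower, beside 25.9% of all genes higher and 48.8% lower, so the balance between the directions depends on the scaling, for the lists as for all genes.

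Of the 6 gamma-secretase genes described, 3 were higher and 2 lower at day 1, beside 34.7% and 34.6% of all genes. Their median was 0.11. By library size alone 0 were higher and 3 lower, beside 25.9% and 48.8% of all genes. Psenen was at 0.19 and Aph1a, the widely used APH1 form, at 0.31. Aph1b (-0.46) and Aph1c (-1.69) were lower, from about 1 and 3 CPM in ATV:RSV mice, and these near-identical copies may share reads, so their split is uncertain. The subunits called higher and Ncstn, which was not called, lay between 0.04 (Ncstn) and 0.31 (Aph1a). The 2 called lower lay outside that range.

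All 7 sheddases that passed the filter were called at day 1 with limma-voom, 5 higher and 2 lower (median 0.32), beside 69.2% of all genes. DESeq2 called 6 of them, and by library size alone 3 were higher and 3 lower, beside 25.9% and 48.8% of all genes. Adam8 was at 1.60 from 0.664 CPM, Adam9 at 0.66 and Adam15 at 0.55, each a larger difference than that of Adam17 or Adam10. Bace1, the beta-secretase, was lower at -0.51, and Adam28 was lower at -0.88 from 0.241 CPM. On the TMM scale the Adam10 value of 0.11 was the nearest to 0 of the 7, and by library size alone that was not so, since Adam10 was at -0.13 and Adam17 at 0.08.

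Of the 5 genes tested in the ADAM17 maturation list, Rhbdf2 was the only one called higher, and Frmd8 and Rhbdf1, which encodes iRhom1, were lower (Rhbdf1 -0.34). The proprotein convertases Furin (-0.12, adjusted p = 0.0765) and Pcsk7 (-0.08) were not called. By library size alone 1 of the 5 was higher and 4 were lower, beside 25.9% and 48.8% of all genes. Among the 4 TspanC8 tetraspanins, Tspan5 was higher (0.45) and Tspan14 lower (-0.16), while Tspan17 (0.37, adjusted p = 0.132) and Tspan33 (0.06) were not called. The limma-voom calls in both lists stand beside 34.7% of all genes called higher and 34.6% called lower. For the tetraspanins, library size alone gave 0 higher and 1 lower, beside 25.9% and 48.8% of all genes. Of the 3 inhibitors tested, 0 were called with limma-voom, edgeR or DESeq2 and 0 had an unadjusted p under 0.05, while 1 was lower by library size alone. The most abundant of them, Timp2, was at 0.08.

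Of the 5 other intramembrane proteases tested, Parl (0.74) and Sppl2a (0.55) were higher and Sppl3 (-0.56) was lower, beside the same shares of all genes as below. The 16 tested genes of the list of surface proteins shed from myeloid cells split 9 lower and 4 higher, with a median of -0.22, beside 34.6% of all genes lower and 34.7% higher. Il6ra was at -1.50, Notch2 at -0.87, Tnfrsf1b at -0.80, Mertk at -0.65 and Csf1r at -0.47, while the classical ADAM17 substrate Tnf was at 3.45, Axl at 3.69 and Cd44 at 1.62. Lrp1 (0.0059), App (0.036) and Ptprc (-0.13) were not called. By library size alone the surface proteins split 4 higher and 12 lower, beside 25.9% and 48.8% of all genes. All 6 members lay within the range of the surface proteins.

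**Figure D5:**
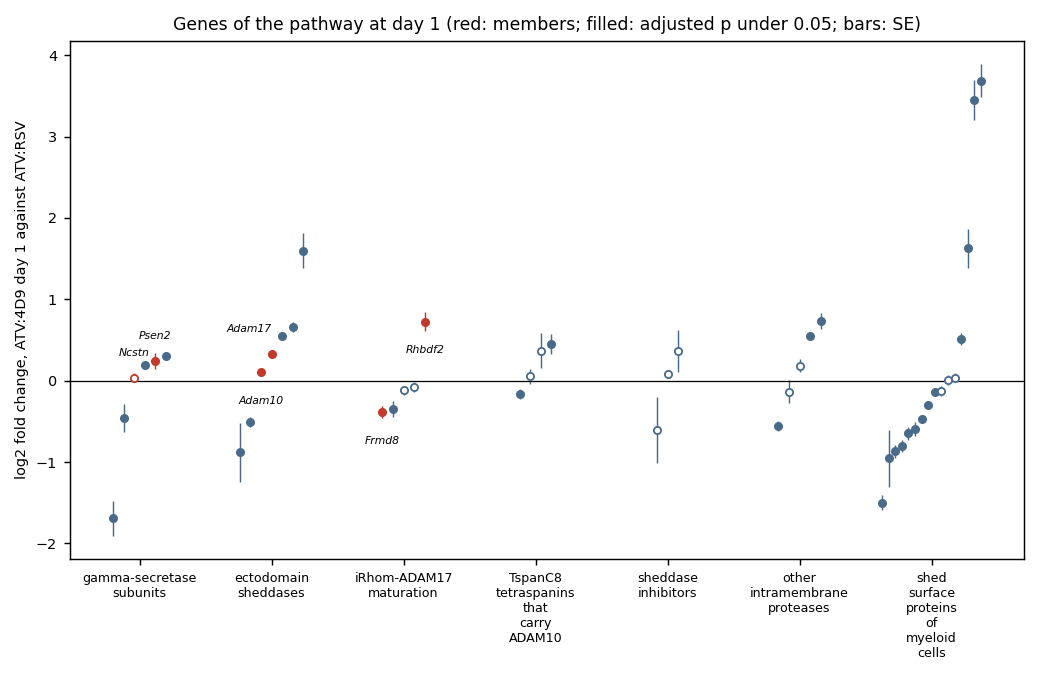
Log2 fold change at day 1 against ATV:RSV (y axis) of the 46 tested genes of the 7 lists (x axis), 1 point per gene with its SE, members in red, filled where the adjusted p is under 0.05. The 6 members lie between -0.39 and 0.73, while the shed surface proteins run from -1.50 to 3.69.

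At day 7, limma-voom called 4 genes of the 46 higher and 0 lower, beside 3.98% of all genes called in either direction: Axl (1.76), Tspan33 (0.62), Timp2 (0.27) and Furin (0.25). Of the 46, 13 had an unadjusted p under 0.05 at day 7, edgeR called 6 and DESeq2 called 9. By library size alone 3 of the 46 were higher and 3 lower at day 7, beside 2.22% and 6.19% of all genes. Tspan33, Timp2 and Furin had not been called at day 1. At day 14 and day 28, 0 of the 46 were called with limma-voom and 0 with edgeR, 3 had an unadjusted p under 0.05 at either day, and DESeq2 called 1 at day 14 and 0 at day 28.

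To see which genes ran closest to each member over the 15 mice, log2 levels were centered on their mean and compared by the root-mean-square difference over 7774 genes with a mean of at least 10 CPM. Bnip2 (0.04), Fam20b and Eif4enif1 were nearest to Adam17, and Tmem164 (0.03), Copa and Rab10 were nearest to Adam10. Rab3gap2 (0.05), Gna15 and Stau1 were nearest to Frmd8, with day 1 log2 fold changes of -0.45, -0.34 and -0.35. D10Wsu102e (0.09), Prpf38a and Epsti1 were nearest to Rhbdf2, with 0.61, 0.72 and 0.65. B4galnt1 (0.08), 1810058I24Rik and Sco2 were nearest to Psen2, and Grina (0.06), Gnpat and Vps52 to Ncstn. Among the members, Adam10 and Adam17 were closest to each other (0.08) and Rhbdf2 and Frmd8 were farthest apart (0.46). Copa, which is near Adam10 here, is the gene whose span overlaps exons of Ncstn.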

How the data were processed

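Microglia of 15 mice, 3 in each of 5 groups, were profiled with 1 single-cell 3′ library per mouse. Per the labels and the methods of the study, the authors mapped reads to mm10 with Cell Ranger (4.0.0 in the submitters' processing notes, while the methods name other versions), filtered the cells, clustered them in Seurat and deposited raw UMI counts per gene and cell with 1 cluster number per cell. The deposited cell table also holds the percent of mitochondrial UMIs per cell, which the authors computed from the same counts; totals and percentages recomputed from the matrix matched it for all 102043 cells (percentages within 0.01). Median UMIs per cell were 4694 to 8996 per mouse and limit what can be seen in 1 cell. Nothing was left out as a column of unknown origin.

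The 6 members and all gene lists were chosen with earlier results of these data known, and 1 gene of the lists is not reported here. UMIs were summed per mouse, filtered with filterByExpr (minimum count 10, total 15), scaled with TMM and fitted with limma-voom (R 4.3.3 with edgeR 4.0.16 and limma 3.58.1) over all 15 mice without a batch term (the study names limma/voom on sums per mouse, and the filter, scaling and model terms were chosen here); p was adjusted over all genes tested. The same fit was made on sums within each deposited cluster, where each mouse had at least 50 cells. UMIs per cell and shares of cells thinned to the 10th percentile of UMIs per cell (3385, seed 17) were compared by exact permutation. The members were named throughout, any list gene that passed the filter could be named (at later days those called), and for each member the rule named the 3 genes with the smallest root-mean-square difference of centered log2 CPM. The scripts were tested on simulated data. Alternatives were edgeR's quasi-likelihood test, DESeq2 1.42.0, library size alone, other filters on low counts, the batch as a block, sums without some cells, no thinning or another depth, and leaving out each mouse; the fit without Mki67 or Top2a cells, and the alternatives for the lists, were chosen after seeing the data. Replicate numbers are the batches of the labels, so they pair the mice; deviations from group means correlated at a mean of 0.0358 within batches (30 pairs) and -0.0176 between them (60 pairs). No doublet caller was run; the fits without the 5% of cells with most UMIs and without cells with markers of another type bear on doublets. Intervals and p-values cover the spread between mice.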

Additional observations from a re-analysis of the deposited data

Results flagged for a closer look

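Of the 6 members, 4 had an effect that differed between time points by a test of the difference itself, the day 7 mice against the day 1 mice of ATV:4D9 in limma-voom, which called 66.9% of all genes in this contrast. Rhbdf2 was lower at day 7 by -0.57 on the log2 scale (adjusted p = 0.000485), Adam17 by -0.18 (0.00277) and Adam10 by -0.15 (0.00332), and Frmd8 was higher by 0.31 (0.00257), with all 3 day 7 mice on 1 side of all 3 day 1 mice for each gene. The share of all genes that separate in this way was not computed, so the separation does not set these 4 genes apart. Within the 3 batches the Rhbdf2 difference was -0.47, -0.33 and -0.92 and the Frmd8 difference was 0.31, 0.34 and 0.31. Both days' effects are measured against the same ATV:RSV mice, which drop out of this contrast. By library size alone the Adam17 difference was -0.035 (adjusted p = 0.552) and the Adam10 difference -0.0097 (adjusted p = 0.843), so these 2 depend on the scaling. Psen2 and Ncstn did not pass the test.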

How the results depend on the processing

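Over the alternatives, 672 of 750 values of single members kept their direction and their side of the threshold. Of the counts, 273 of 289 stayed within 1.5 times. Both totals include the fits within clusters with a lower minimum of cells per mouse. Those fits repeat the main fit, so they could not differ from it and say nothing on how stable the results are. At day 1 against ATV:RSV, library size alone gave -0.13 for Adam10, -0.0020 for Psen2 and -0.20 for Ncstn in place of small positive values, and 0.040 for Psen2 from day 1 to day 7; the list genes then split 10 higher and 26 lower (14 to 16 higher and 14 to 16 lower with 1 mouse left out). Members called at day 1 numbered 3 with a filter of at least 1 CPM and 3 to 4 with 1 mouse left out (Adam10 and Psen2 lost, 3 without ATV:4D9 day 1 replicate 1 or ATV:RSV replicate 1). Psen2 was also lost with edgeR and without the 5% of cells with most UMIs. At day 7, members called were 1 with DESeq2, 1 with library size alone (Adam10, lower) and 1 with the replicate block of the batch (Adam17); the block also added the Ncstn calls given in the report and changed no other call. For shares of cells, members with a permutation p under 0.05 were 5 without thinning against 3, and the day 1 difference of Adam10 was then 11.1 points, of Psen2 3.73 points and of Ncstn 7.23 points. The cause of these changes was not tested.

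With 1 mouse left out, signs turned for values that were not called with all mice: Frmd8 at day 7 ran from -0.11 to 0.0027, and within clusters at day 1 Adam17 ran from -0.015 to 0.12 and Psen2 from -0.22 to 0.054 in cluster 0, Rhbdf2 from -0.11 to 0.64, Psen2 from -0.063 to 0.30 and Ncstn from -0.025 to 0.15 in cluster 1, and Adam10 from -0.10 to 0.064, Psen2 from -0.98 (called, without ATV:RSV replicate 1) to 0.15 and Ncstn from -0.19 to 0.010 in cluster 2. Frmd8 UMIs per cell differed by -0.0172 to 0.0145 and the Psen2 share by -0.330 to 0.282 points. Members called within clusters 1 and 2 ran from 0 to 1 each (in cluster 2 Frmd8, or Psen2 in its place without ATV:RSV replicate 1), and members with p under 0.05 in UMIs per cell from 2 to 5. All mice had at least 50 cells in each cluster, so a minimum of 20 left the fits as they were. With 219 to 559 UMIs per mouse, and 7 to 23 in cluster 2 outside treated day 1, Rhbdf2 is the member that depth limits most.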
